A study of Mus musculus with 14 samples.

Results

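Sox7, Sox17 and Sox18 are the genes of the mouse SoxF group of transcription factors. They were taken by name from the gene tables of every library, so they are 3 of 24054 genes, and all 3 are listed in each of the 14 libraries. SoxF proteins bind DNA through an HMG box, and their carboxy-terminal part can bind beta-catenin, the co-activator of Wnt signalling. Sox17 is needed to form definitive endoderm, the source of the gut, liver and pancreas, and Sox7 is known from extraembryonic endoderm. All 3 genes also act in endothelial cells, where Sox18 takes part in forming lymphatic vessels.

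RNA was sequenced from sorted mouse embryonic stem cells (ESCs) and from endoderm cells made from them, to ask what happens to transcription without the pioneer factor Foxa2 and when Foxa2 is induced in ESCs. The groups d0con and d0ko (2 libraries each) were undifferentiated ESCs at day 0, kept without LIF on red-fluorescent feeder fibroblasts and sorted as Cherry-negative. The groups d3con and d3ko (3 libraries each) were Venus-positive cells, sorted after 3 days on Wnt3a-secreting feeder cells with 12 ng/ml Activin A. In all con and ko lines Venus joined to a histone replaces the coding region of Foxa2, on 1 allele in con and on both alleles in ko, so the controls also lack 1 copy of Foxa2. The lines are clones, and at day 3 replicates 1 and 3 of a genotype came from the same clone, so each genotype rests on 2 clones. Another ESC line gave 2 libraries each of d2-FVFn and d2-FVFp. It was grown without feeders in LIF and serum with 40 ng/ml doxycycline for 48 hours, which induces a Foxa2-Venus fusion. The groups were the sorted Venus-negative and Venus-positive cells of that culture. The parental cells of that line carry a Sox17-Cherry fusion on both alleles, so their Sox17 reads come from the fusion allele. Whether RSEM counts reads of that allele in full was not tested, which limits each Sox17 level, share and place in an order given for this line. The counts do not separate induced from native Foxa2.

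The libraries held 14142788 to 27278237 expected counts, the reads that the program RSEM assigned to genes. Foxa2 followed the labels, with 34.8 to 58.6 TPM (a transcript level scaled for gene length and library total) in d3con, at most 0.19 TPM in d3ko, 2.01 and 2.99 TPM in d2-FVFn and 159.8 and 168.6 TPM in d2-FVFp. Reads were 75 bases long in replicate 1 of both day 3 groups and 50 bases long in all others, as far as the effective lengths in the tables show, whereas the study's methods give 50 bases for these libraries. The d3ko libraries differed among themselves, since the summed level of 12 pluripotency genes was 16722 and 19973 TPM in replicates 1 and 3 and 4618 TPM in replicate 2, against 919 to 2126 TPM in d3con. Dppa5a, at 14200, 1867 and 15543 TPM in replicates 1, 2 and 3, made up most of the sum in replicates 1 and 3. Pou5f1 (522.5, 500.9 and 943.7 TPM), Nanog (254.5, 240.1 and 345.1 TPM) and Tdgf1 (625, 1787 and 1359 TPM) did not set replicate 2 apart in this way. The other genes of the list did, each standing well below replicates 1 and 3 in replicate 2. Among them were Zfp42 (309.04, 40.05 and 400.05 TPM), Fgf4 (70.96, 10.82 and 124.3 TPM) and Utf1 (292.19, 102.72 and 707.2 TPM). The summed level of 12 feeder fibroblast genes was 17.2 and 19.6 TPM in d0con, 47.4 and 160.7 TPM in d0ko, 74.2 to 383.4 TPM at day 3 and at most 7.64 TPM in the doxycycline line. The median log2 difference of these genes was 2.47 for d0ko against d0con and -2.09 for the interaction, with none of the 11 tested genes called in either, so these values stand beside each comparison that uses d0ko. The part of the feeder genes in the results was not tested. In these bulk samples, fewer cells of a type and less RNA per cell cannot be told apart. Nothing in the labels says that libraries of 1 clone came from separate cultures, so p-values measure the spread between these libraries.

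The coding sequences are close enough that the question of reads shared between the genes arises. In the RefSeq annotation of GRCm38 Sox7 lies on the plus strand at chr14:63943706-63950732, Sox17 on the minus strand at chr1:4490928-4497426 and Sox18 on the minus strand at chr2:181669837-181671640. Over all coding windows of 50 bases within an exon, the length of most reads here, the fewest mismatches were 3 between Sox17 and Sox18, 4 between Sox7 and Sox17 and 6 between Sox7 and Sox18, so no such window was identical in any pair. Of the 42 SoxF counts, 41 were whole numbers and 1 was fractional, the form a count takes when RSEM divides a read between genes. On either strand, other genes of the GENCODE M21 annotation of GRCm38 held 0 of 1571 distinct 50-base stretches of Sox18 transcripts, 2 of 3250 of Sox7 and 755 of 5037 of Sox17. The Sox17 stretches were all shared with Gm37587, a processed transcript on the opposite strand at chr1:4496551-4499558 that overlaps the start of Sox17, as GENCODE places it, by 804 bases. The library kit does not mark the strand, so reads of this overlap cannot be assigned to one gene or the other.

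Sox17 carried nearly all SoxF transcripts of the differentiated control cells and was close to absent elsewhere. It stood at 131, 62.4 and 109.8 TPM in the d3con libraries, from 2185 to 5138 reads. In d3ko it stood at 2.10, 1.25 and 0.76 TPM, from 37 to 64 reads. The lowest d3con library was thus well above the highest d3ko library, and both groups lay above every other library. At day 0 Sox17 stood at 0.09 and 0.09 TPM in d0con and at 0.24 and 0.02 TPM in d0ko, from 1 to 11 reads. In the doxycycline line it stood at 0.21 and 0.12 TPM in d2-FVFn and at 0.16 and 0.59 TPM in d2-FVFp, from 4 to 17 reads. These 4 groups overlapped with one another along the order of mean levels, which ran d3con, d3ko, d2-FVFp, d2-FVFn, d0ko, d0con.

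Sox7 was the main SoxF transcript of undifferentiated ESCs on feeders and varied widely among the day 3 libraries. It stood at 4.74 and 2.20 TPM in d0con and at 3.01 and 1.61 TPM in d0ko. In d3con it stood at 2.41, 0.98 and 0.24 TPM. In d3ko it stood at 12.2, 0.31 and 2.05 TPM, so that replicate 1 (364 reads) held the highest level of all libraries and replicate 2 (10 reads) lay below 2 of the 3 d3con libraries. In the doxycycline line it was at most 0.49 TPM, from 4 to 14 reads. Every group overlapped with its neighbour in the order of mean levels, which ran d3ko, d0con, d0ko, d3con, d2-FVFp, d2-FVFn.

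Sox18 was low in all groups and also peaked in replicate 1 of d3ko. It stood at 1.04 and 0.67 TPM in d0con and at 0.35 and 0.54 TPM in d0ko. In d3con it stood at 2.89, 0.83 and 0.25 TPM, and in d3ko at 9.50, 1.29 and 0.71 TPM. Within both day 3 groups the replicate of 75-base reads was the highest for Sox18, for Sox7 and for Sox17. In the doxycycline line Sox18 stood at 2.32 and 2.52 TPM in d2-FVFn and at 2.44 and 1.29 TPM in d2-FVFp, where it was the leading SoxF transcript. In the order of mean levels, which ran d3ko, d2-FVFn, d2-FVFp, d3con, d0con, d0ko, the last 2 groups did not overlap and all other neighbours did. That gap rests on few reads, 19 and 11 in d0con and 8 and 11 in d0ko.

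**Figure D1:**
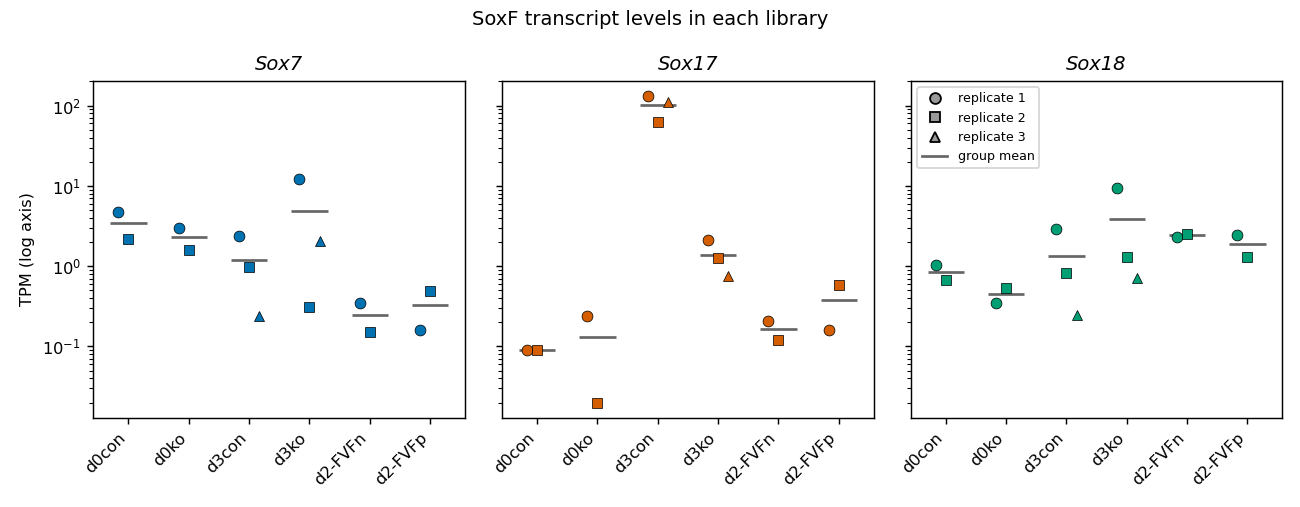
Levels of Sox7, Sox17 and Sox18 in TPM (vertical log axis) in the 14 libraries by group, with 1 point per library, its shape giving the replicate number, and a bar at the group mean. Sox17 sits at 62.4 to 131 TPM in d3con and at no more than 2.10 TPM elsewhere, whereas Sox7 and Sox18 reach their highest values, 12.2 and 9.50 TPM, in replicate 1 of d3ko.

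The make-up of the SoxF total therefore differed between the groups. Sox7 gave 74.2% to 83.6% of the summed SoxF TPM at day 0, where that sum was 2.17 to 5.87 TPM. Sox17 gave 96.1% to 99.6% of it in d3con, where the sum was 64.2 to 135.8 TPM. In d3ko the sum was 23.8, 2.85 and 3.52 TPM in replicates 1, 2 and 3, and no gene led in all of them: Sox7 gave 51.3%, 10.9% and 58.2%, Sox17 8.82%, 43.9% and 21.6%, and Sox18 39.9%, 45.3% and 20.2%. In the doxycycline line, with a sum of 2.37 to 2.88 TPM, Sox18 gave 54.4% to 90.3%.

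**Figure D2:**
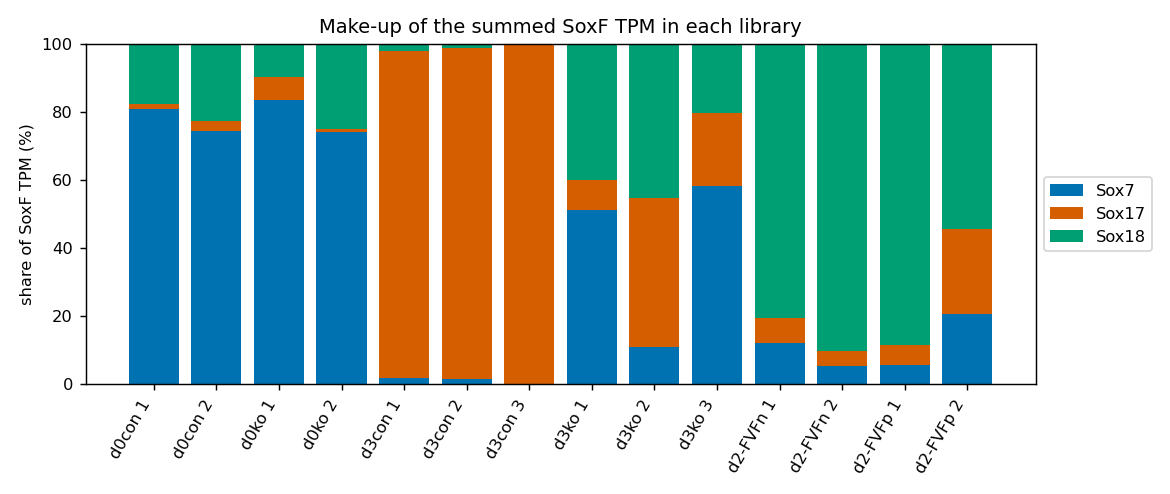
Share of each SoxF gene in the summed SoxF TPM of a library, in percent, with 1 stacked bar per library. Sox7 fills most of each day 0 bar, Sox17 at least 96.1% of each d3con bar and Sox18 most of each bar of the doxycycline line, while the d3ko bars are mixed.

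The first comparison asked how the genes changed on endoderm differentiation of control cells. Sox17 rose from d0con to d3con, by 10.02 ± 0.85 on the log2 scale (± SE, adjusted p = 0.00015, edgeR). It was 1 of 3 SoxF genes called, at an adjusted p under 0.05 and a change of more than 2-fold, where 20.6% of the 13899 tested genes were called higher and 14.6% lower. Because d0con held only 6 Sox17 reads against 11952 in d3con, the ratio of pooled reads, scaled to library totals, was 1210, with a 95% counting interval of 556 to 3298 that covers counting error only. Sox7 differed by -1.67 ± 1.24 (adjusted p = 0.279, edgeR) and Sox18 by 0.47 ± 1.24 (adjusted p = 0.769, edgeR), and neither was called. The Sox18 difference turned to -0.88 without replicate 1 of d3con.

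Without Foxa2 the fitted rise of Sox17 was smaller and was also called. Its difference from the rise in control cells was not called (adjusted p = 0.129, edgeR). From d0ko to d3ko Sox17 rose by 3.15 ± 0.75 on the log2 scale (adjusted p = 0.0145, edgeR), and it was again 1 of 3 SoxF genes called, against 11.6% of all tested genes called higher and 5.72% lower. The d0ko libraries held 12 Sox17 reads and the d3ko libraries 142, a scaled ratio of 9.32 with a counting interval of 5.17 to 18.5. The call rested on few day 0 reads: without replicate 2 of d0ko the change was 2.33 (adjusted p = 0.091, edgeR), without replicate 1 it was 5.51 (adjusted p = 0.0386, edgeR), and in a fit of only these 2 groups the adjusted p was 0.077 (edgeR). Sox18 differed by 2.92 ± 1.35 between d0ko and d3ko (adjusted p = 0.128, edgeR) and was not called. With the replicate number as a block it passed at 2.90 (adjusted p = 0.0442, edgeR), but that block ties con and ko clones of the same number and separates replicates 1 and 3 of a clone. Sox18 also passed with DESeq2 (2.94, adjusted p = 0.0456) and with the day 3 libraries of 1 clone summed (2.42, adjusted p = 0.0471, edgeR). With the clone itself as a block within each genotype it was 2.49 (adjusted p = 0.247, edgeR), an alternative chosen after seeing the data, and without replicate 1 of d3ko it was 0.96 (adjusted p = 0.529, edgeR, unblocked). Sox7 differed by 0.92 ± 1.27 (adjusted p = 0.611, edgeR), by -1.12 without that library and by -0.36 with the clone block.

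The comparison of the genotypes at day 3 asked which SoxF genes depend on the genotype in Venus-positive cells. Sox17 was lower in d3ko than in d3con by 75.8-fold (log2 fold change -6.24 ± 0.54, adjusted p = 0.00226, edgeR), with all 3 d3ko libraries below all 3 d3con libraries. No SoxF gene was called higher, and 1 of 3 was called lower, where 4.75% of the tested genes were called higher and 3.51% lower. The adjusted p of Sox17 ranged from 0.000352 to 0.0213 when any 1 library was left out. It reached 0.0556 when both 75-base libraries were left out and 0.0568 when the libraries of 1 clone were summed, with log2 fold changes of -6.44 and -6.20. Under both of these alternatives Foxa2 was the 1 gene called of all those tested. The test with 3 libraries a group thus counts 1 clone of each genotype more than once.

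Sox7 and Sox18 went the other way in the fit, but in neither did the difference exceed the spread between libraries. Sox7 differed by 1.97 ± 1.16 (adjusted p = 0.306, edgeR) and Sox18 by 1.48 ± 1.07 (adjusted p = 0.405, edgeR). Both differences rested on replicate 1 of d3ko. Without it they were -0.07 for Sox7 (adjusted p = 0.975, edgeR) and -0.48 for Sox18 (adjusted p = 0.782, edgeR), while Sox17 kept a difference of -6.71. The mean ratio of Sox17 to Sox7, as log2 of TPM + 0.1, was 6.63 ± 1.48 (SD, n = 3) in d3con and -0.70 ± 2.17 (SD, n = 3) in d3ko. The ratio of Sox17 to Sox18 was 6.60 ± 1.5 in d3con and -0.69 ± 1.24 in d3ko. Neither ratio overlapped between the genotypes (exact two-sided permutation p = 0.1, adjusted 0.15 over 3 ratios), where 0.1 is the smallest p that 3 against 3 libraries allow. The ratio of Sox7 to Sox18 differed by only 0.03 between the group means (exact two-sided permutation p = 1), and its SD was 0.23 in d3con and 1.61 in d3ko.

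**Figure D3:**
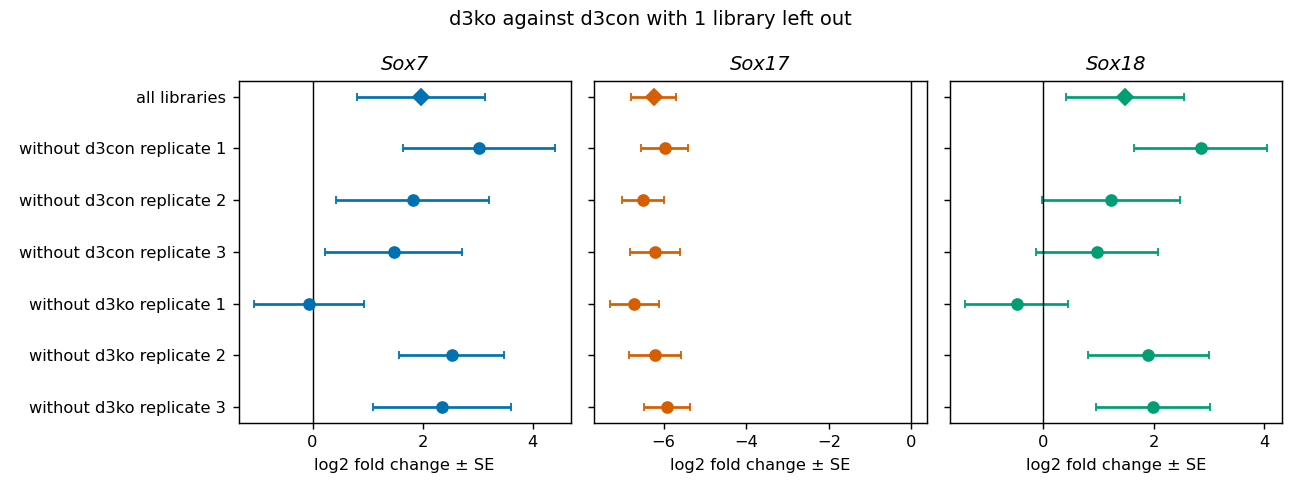
Log2 fold change of d3ko against d3con, with its SE, for each SoxF gene in the fit of all libraries (diamond) and with each day 3 library left out in turn (circles). Sox17 stays between -6.71 and -5.92, while Sox7 and Sox18 move to -0.07 and -0.48 without replicate 1 of d3ko.

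Before differentiation no SoxF gene was called between the genotypes. The log2 differences of d0ko against d0con were -0.62 ± 1.37 for Sox7, 0.62 ± 1.20 for Sox17 and -0.97 ± 1.40 for Sox18, each with an adjusted p of 1 (edgeR). Over all genes 0 of 13899, or 0%, were called here in either direction, 195 had an unadjusted p under 0.05, and DESeq2 called 1, Rian, a gene named after its values were seen. The difference in the day 0 to day 3 change between the genotypes, the interaction of genotype and day, was -6.87 ± 1.36 for Sox17 (unadjusted p = 0.000641, adjusted p = 0.129, edgeR) and was not called. It was called with DESeq2 (adjusted p = 1.62e-07), and with edgeR when replicate 2 of d3con (adjusted p = 0.0451) or replicate 2 of d3ko (adjusted p = 0.0344) was left out, which leaves that group with a single clone measured in 2 libraries. It shrank to -4.50 without replicate 1 of d0ko, which held 11 of the 12 Sox17 reads of its group. For the interaction 0% of all genes were called by edgeR in either direction, with 1840 genes at an unadjusted p under 0.05, and DESeq2 called 566. The interaction was 2.59 ± 1.79 for Sox7 and 2.46 ± 1.76 for Sox18, with adjusted p of 0.577 and 0.591 (edgeR).

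Inducing Foxa2 in ESCs was not accompanied by a detectable change in a SoxF gene. Foxa2 rose by 6.0 ± 0.22 on the log2 scale from d2-FVFn to d2-FVFp (adjusted p = 0.000142, edgeR), and its level in d2-FVFp exceeded that in d3con. Sox18 was the 1 SoxF gene that passed the filter on low counts, and it differed by -0.44 ± 0.46 (adjusted p = 0.546, edgeR). So 0 of 1 tested SoxF genes were called, where 6.96% of 12943 genes were called higher and 1.47% lower. Sox17 had 21 reads in d2-FVFp and 10 in d2-FVFn, a scaled ratio of 2.54 with a counting interval of 1.14 to 6.03, and 17 of the 21 were in replicate 2. Sox7 had 18 and 15 reads, a ratio of 1.45 with an interval of 0.690 to 3.09. In a fit with no filter Sox17 differed by 1.17 ± 0.94 (adjusted p = 0.47, edgeR) and Sox7 by 0.37 ± 0.90 (adjusted p = 0.837, edgeR).

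**Figure D4:**
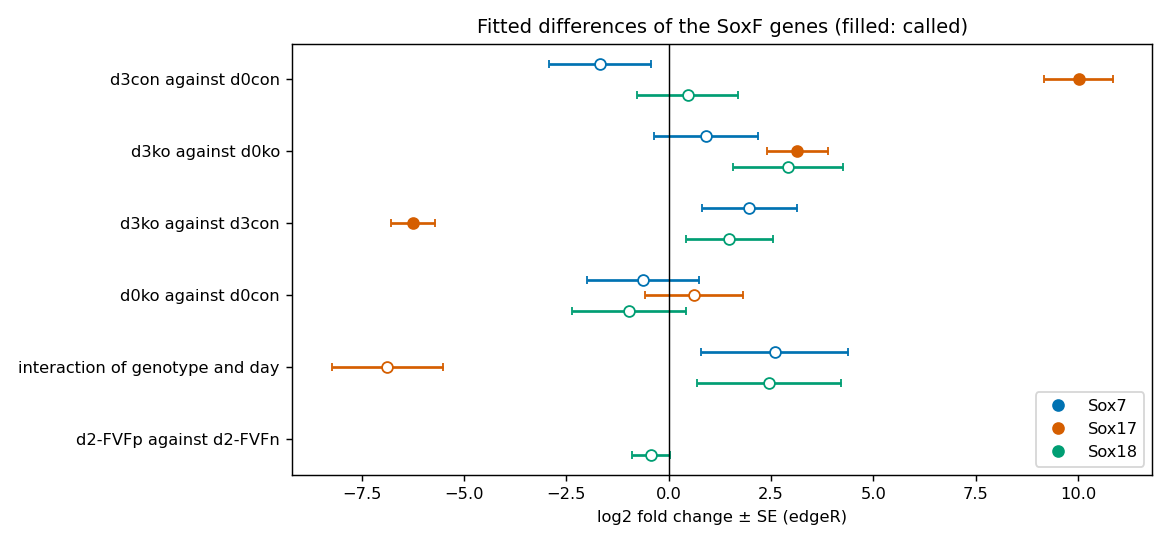
Log2 fold change with its SE (horizontal axis) of each SoxF gene in each comparison, where filled points were called and open points were not. Sox17 is filled in d3con against d0con, d3ko against d0ko and d3ko against d3con, and no point of Sox7 or Sox18 is filled.

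Members of the Sox family outside SoxF showed other patterns in the same libraries. Of 17 such genes, 10 passed the filter of the day 0 and day 3 fit. From d0con to d3con 5 were called higher and 2 lower, among them Sox9 (5.37 ± 0.71, adjusted p = 0.000544, edgeR) and Sox4 (4.10 ± 0.63), which rose, and Sox2 (-4.31 ± 0.69) and Sox15 (-3.94 ± 0.57), which fell. Over all tested genes 20.6% were called higher and 14.6% lower in that comparison. Sox2 is a core factor of pluripotency. In d3ko against d3con 2 were called higher, Sox2 (3.66 ± 0.64) and Sox15 (2.76 ± 0.52), and 1 lower, Sox21 (-4.21 ± 0.63, adjusted p = 0.0107, edgeR). Between these groups 4.75% of all tested genes were called higher and 3.51% lower. Sox2 stood at 89.3, 14.7 and 86.1 TPM in d3ko and at 4.99, 7.42 and 2.71 TPM in d3con, so replicate 2 of d3ko lay nearest to the controls.

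Sox21 was the 1 gene of the list called, like Sox17, both higher in d3con than in d0con and lower in d3ko than in d3con, and it was also called in the doxycycline line, where Sox17 was too low to be tested. Sox21 stood at 7.72, 4.44 and 3.48 TPM in d3con and at 0.20, 0.11 and 0.51 TPM in d3ko. In d2-FVFp it stood at 5.50 and 4.29 TPM against 0.73 and 0.50 TPM in d2-FVFn (2.94 ± 0.35, adjusted p = 0.00338, edgeR). Sox9 also rose there (6.27 ± 0.63), from at most 0.12 TPM to 4.74 and 5.68 TPM, and at day 3 it stood at 27.6, 16.3 and 6.42 TPM in d3ko and at 7.62, 6.94 and 5.95 TPM in d3con (adjusted p = 0.102, edgeR). These 2 were the genes called higher among 11 tested family members in the doxycycline line, and 0 were called lower. Of all genes tested in that line, 6.96% were called higher and 1.47% lower. Of the other genes with a group mean of at least 5 TPM, Sox11 (1.43 ± 0.34) was called higher in d3con than in d0con, whereas Sox12 (0.80 ± 0.28) and Sox13 (-0.86 ± 0.20) stayed under 2-fold. None of these 3 was called between the genotypes at day 3.

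Definitive endoderm genes were largely called in the directions in which Sox17 was called. Of 23 genes on the list, all tested, 22 were called higher and 0 lower in d3con against d0con (median log2 fold change 6.09, against 0.07 over all genes), led by Cer1, which was listed at 0 in d0con and at 544.2 to 548.2 TPM in d3con, Lhx1 (13.26 ± 1.59) and Foxa1 (9.91 ± 1.06). In d3ko against d3con 0 were called higher and 13 lower (median -2.50, against 0.02), among them Foxa1 (-7.52 ± 0.72) and Dkk1 (-4.85 ± 0.84). On induction of Foxa2 9 of 16 were called higher and 1 lower (median 1.62, against 0.01), led by Gata6 (5.19 ± 0.44), Cer1 (4.16 ± 0.84) and Krt18 (3.54 ± 0.42), while Otx2 fell (-1.06 ± 0.19). From d0ko to d3ko 12 were called higher and 0 lower. Over all tested genes, 20.6% were called higher and 14.6% lower in d3con against d0con. The shares were 4.75% and 3.51% in d3ko against d3con, 6.96% and 1.47% on induction of Foxa2, and 11.6% and 5.72% from d0ko to d3ko.

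Extraembryonic endoderm genes were listed because Sox7 and Sox17 are also known from that tissue. Of 22 genes, 19 were tested, and 12 were called higher and 1 lower in d3con against d0con (median 2.65, against 0.07 over all genes, of which 20.6% were called higher and 14.6% lower), led by Gata6 (7.64 ± 0.90), which is on both endoderm lists, Pdgfra (6.43 ± 1.28) and Srgn (5.64 ± 1.31), while Rhox5 fell (-1.71 ± 0.47). In d3ko against d3con 0 were called higher and 3 lower (median -0.43, against 0.02, beside 4.75% higher and 3.51% lower of all), namely Apob (-6.34 ± 1.14) and the laminin genes Lamb1 (-1.73 ± 0.30) and Lamc1 (-1.17 ± 0.20). With induced Foxa2 8 of 19 tested were called higher and 0 lower (median 0.99, against 0.01), with Srgn (5.32 ± 0.94) and Apoa1 (4.41 ± 0.86) beside Gata6. Of all genes tested with induced Foxa2, 6.96% were called higher and 1.47% lower.

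Genes of Wnt signalling and of the factors that share beta-catenin with SoxF proteins formed a list of 16, all tested in the day 0 and day 3 fit. In d3con against d0con 9 were called higher and 1 lower (median 3.12, against 0.07), beside 20.6% and 14.6% of all tested genes. In d3ko against d3con 1 was called higher and 4 lower (median -0.33, against 0.02), beside 4.75% and 3.51% of all. Among those lower were Dkk1 and Sfrp5 (-4.67 ± 0.74), which encode secreted Wnt inhibitors, and Tcf7l2 (-3.11 ± 0.42, adjusted p = 0.00907, edgeR), a DNA-binding partner of beta-catenin. Tcf7l2 stood at 82.8, 44.1 and 103.4 TPM in d3con and at 7.73, 14.1 and 5.08 TPM in d3ko. Notum, which encodes a secreted enzyme that inactivates Wnt proteins, was lower in d3con than in d0con (-5.92 ± 0.89) and was called higher in d3ko than in d3con (2.98 ± 0.80). Between d2-FVFp and d2-FVFn 1 of 12 was called higher, Tcf7l2 (1.68 ± 0.22), and 2 lower, Lef1 (-1.93 ± 0.26), another partner of beta-catenin, and Sfrp1 (-1.05 ± 0.21). Between these 2 groups 6.96% of all tested genes were called higher and 1.47% lower. Ctnnb1, the gene of beta-catenin itself, stood between 204.5 and 353.1 TPM in all libraries.

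Endothelial genes were listed because all 3 SoxF genes act in endothelium. Of 25 genes, 20 were tested in the day 0 and day 3 fit, and in d3con against d0con 7 were called higher and 5 lower (median 0.42, against 0.07 over all genes), where 20.6% of all tested genes were called higher and 14.6% lower. The largest rises were those of Flt1 (8.36 ± 1.03), a VEGF receptor gene, Nr2f2, which was listed at 0 in d0con and at no more than 0.84 TPM in d3con, and Fli1 (5.25 ± 1.54), and Esam (-5.53 ± 1.11), Robo4 (-5.30 ± 0.74) and Pecam1 (-4.31 ± 0.82) fell. In d3ko against d3con 3 were called higher, Pecam1 (4.44 ± 0.79), Eng (3.26 ± 0.49) and Gata2 (3.07 ± 0.82), and 1 lower, Flt1 (-3.58 ± 0.65), beside 4.75% and 3.51% of all tested genes. Pecam1, Esam and Eng were expressed in the undifferentiated ESCs too, so this list is not specific to endothelium here. They stood there at 31.2 to 60.2 TPM, 17.8 to 33.8 TPM and 10.1 to 15.0 TPM. From d0ko to d3ko Pecam1 (-0.40 ± 0.74), Eng (-0.92 ± 0.48) and Gata2 (1.24 ± 0.87) were not called. Of the 14 tested in the doxycycline line, 3 were called higher, namely Prox1 (5.06 ± 0.79), which encodes a factor of lymphatic endothelium and of endoderm, Flt1 (4.99 ± 0.41) and Eng (1.40 ± 0.17), and 1 lower, Etv2 (-1.51 ± 0.38). Over all genes tested in that line 6.96% were called higher and 1.47% lower.

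The library in which Sox7 and Sox18 peaked also held the highest levels of several early blood vessel genes, a pattern noticed after the values were seen and given without a test. In replicate 1 of d3ko the summed level of the 25 genes was 372.6 TPM, against 169.9 to 224.7 TPM in the other day 3 libraries. Egfl7 was the largest part of that sum, at 132.7 TPM, against 52.65 to 88.52 TPM in the other day 3 libraries. Pecam1 gave 50.3 TPM and was higher in replicate 3 of d3ko (78.7 TPM). Both were also expressed in ESCs at day 0, Egfl7 at 46.8 to 56.7 TPM and Pecam1 at 31.2 to 60.2 TPM. Of the 17 endothelial genes that reached 1 TPM in a day 3 library, 9 had their highest level in replicate 1 of d3ko, or 52.9%, against 14.5% of all 14078 such genes. Etv2, which starts the endothelial and blood lineages, stood at 81.5 TPM there and at 15.7 to 40.5 TPM in the other day 3 libraries. Tal1 and Lmo2, factors of early blood and vessel precursors, stood at 3.58 and 15.4 TPM, against at most 0.52 and 4.24 TPM elsewhere at day 3. The receptor gene Kdr did not share the peak, with 27.4 TPM in replicate 1 and 35.4 TPM in replicate 2 of d3ko. Among defining genes of mature endothelium, Cdh5 reached 2.46 TPM, Erg 0.70 TPM and Tie1 0.37 TPM in replicate 1 of d3ko, and Emcn was listed at 0 in all libraries. The part of such cells in the levels of Sox7 and Sox18 was not tested.

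**Figure D5:**
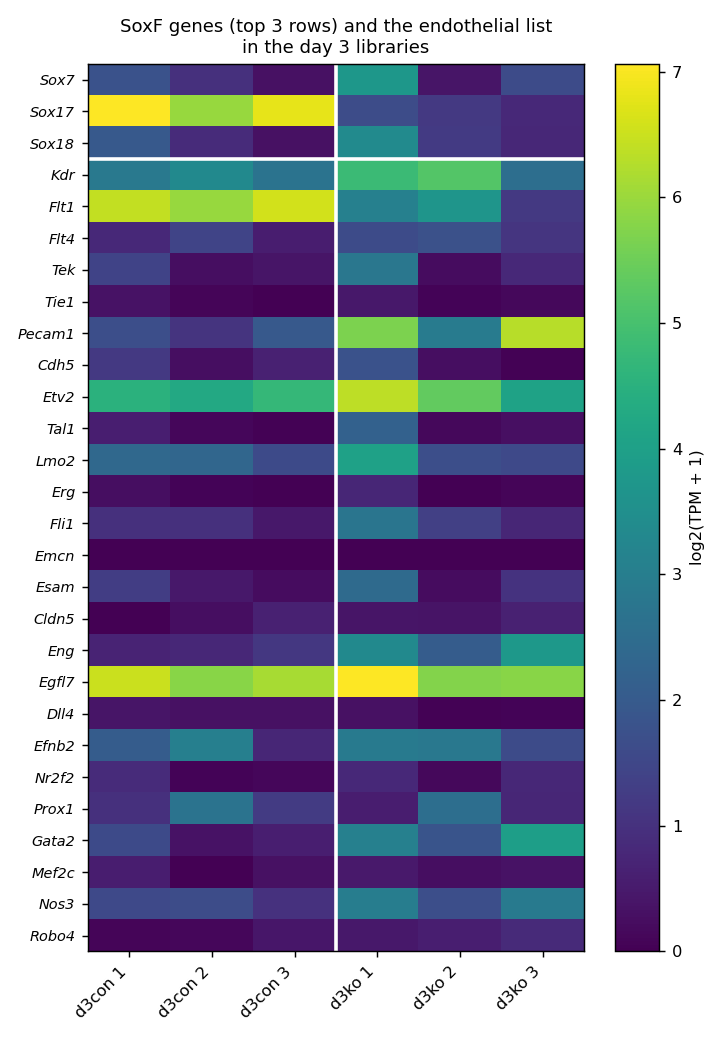
Level of the 3 SoxF genes (top rows) and of the 25 endothelial genes, as log2(TPM + 1) in color, in the 6 day 3 libraries (columns). The column of d3ko replicate 1 holds the highest Sox7, Sox18, Etv2, Tal1 and Lmo2, whereas Sox17 and Flt1 are highest in the d3con columns.

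The remaining lists mark cell states rather than SoxF biology. Of 12 pluripotency genes, all tested, 0 were called higher and 10 lower in d3con against d0con (median -4.63), led by Zfp42 (-5.75 ± 0.76), Utf1 (-5.49 ± 0.72) and Fgf4 (-5.40 ± 0.78). In d3ko against d3con 9 were called higher and 0 lower (median 3.97), led by Fgf4 (5.01 ± 0.74), Esrrb (4.68 ± 0.65) and Zfp42 (4.53 ± 0.70), and in the doxycycline line 1 was called higher, Klf4 (1.29 ± 0.29). Of 12 feeder fibroblast genes, 11 were tested, and 6 were called higher in d3con against d0con, led by Col1a2 (4.0 ± 0.86), Thy1 (3.95 ± 1.07) and Col1a1 (3.9 ± 0.92). None was called between the genotypes at day 3 (median 0.47), and 2 of 4 were called lower in the doxycycline line, Col1a2 (-5.07 ± 0.89) and Fbln2 (-1.62 ± 0.42). For both lists, 20.6% of all tested genes were called higher and 14.6% lower in d3con against d0con. The shares were 4.75% and 3.51% in d3ko against d3con and 6.96% and 1.47% in the doxycycline line.

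The genes whose levels most resembled each SoxF gene were ranked by Pearson r of log2(TPM + 1) over the 14 libraries, among 11102 genes. For Sox17 the 5 highest included Gm5771 (r = 0.983), Prss1 (0.982), Slc39a2 (0.979) and Rgs8 (0.979). Prss1 stood at 108.8, 22.3 and 78.6 TPM in d3con and at no more than 0.48 TPM elsewhere, so 3 libraries fix this likeness. Prss1 encodes a trypsinogen and Gm5771 is a close relative, so reads can be shared between them. For Sox7 they were Spen (0.912), Rplp2-ps1 (0.899), Rpl13a (0.898), Ski (0.888) and Zfp598 (0.888), and for Sox18 Arl14ep (0.861), Kifc5b (0.854), Pabpc4 (0.849), Enc1 (0.840) and Dusp2 (0.829). Spen ran only from 2.96 to 9.52 TPM, and its highest library was replicate 1 of d3ko, as it was for Sox7. The libraries share lines and batches, so these values are descriptions. With Spearman's rho 0, 0 and 1 of the 5 genes were among the top 5 again for Sox7, Sox17 and Sox18, and over the 10 day 0 and day 3 libraries 2, 1 and 0 were. Between the members r was -0.06 for Sox7 and Sox17, -0.04 for Sox17 and Sox18 and 0.35 for Sox7 and Sox18. In the same order r was -0.37, 0.08 and 0.70 over the 10 day 0 and day 3 libraries. Spearman's rho over the 14 libraries was 0.03, 0.17 and -0.05.

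The genes beside the SoxF genes on the chromosome were given as context for position. On chromosome 1 the nearest genes with reads in most libraries were Mrpl15, at 275.8 kb, and Lypla1, at 310.4 kb, and neither was called between the genotypes at day 3 (0.19 ± 0.15 and 0.19 ± 0.27). Mrpl15 was called lower in d3con than in d0con (-1.04 ± 0.17, adjusted p = 0.00119, edgeR), the opposite direction to Sox17. Rp1 and Xkr4 on the other side were at most 0.06 and 0.88 TPM, against 62.4 to 131 TPM of Sox17 in d3con. Xkr4 was called higher in d3con than in d0con, as Sox17 was (5.08 ± 1.24, adjusted p = 0.00829, edgeR), and differed by -1.86 ± 0.76 in d3ko against d3con (adjusted p = 0.149, edgeR). Beside Sox7, Pinx1 (23.8 kb) was lower in d3con than in d0con (-1.27 ± 0.20, adjusted p = 0.00115, edgeR), while Xkr6 was at most 0.60 TPM, Rp1l1 at most 0.01 TPM and 4930578I06Rik at 0.

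Beside Sox18 some but not all neighbours were called, although Sox18 itself was not. Over all tested genes 20.6% were called higher in d3con than in d0con, and 3.51% lower in d3ko than in d3con. Tcea2, at 8.7 kb, stood at 30.6, 15.0 and 31.3 TPM in d3con, at 8.17, 8.98 and 8.11 TPM in d3ko and at 4.81 to 5.07 TPM at day 0. It was called higher in d3con than in d0con (2.18 ± 0.37, adjusted p = 0.00155, edgeR) and lower in d3ko than in d3con (-1.62 ± 0.31, adjusted p = 0.0165, edgeR). Samd10, at 70.4 kb, was called in the same directions (1.21 ± 0.28 and -1.39 ± 0.25), and Rgs19, at 16.8 kb, was called lower in d3ko than in d3con (-1.07 ± 0.27). Rgs19 was not called in d3con against d0con (0.75 ± 0.31, adjusted p = 0.0658, edgeR). Prpf6, at 14.2 kb, was called in neither comparison (-0.55 ± 0.13 and -0.05 ± 0.11). Sox18, between them, was lower than these 4 genes in each library other than replicate 1 of d3ko, where it stood above Tcea2.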

How the data were processed

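RNA of sorted mouse cells was measured in 14 libraries of 6 groups, with groups and replicate numbers from the sample titles. Libraries were made with a SMART-Seq low-input kit, which does not mark the strand. The authors aligned reads to mm10 with STAR and quantified each library with RSEM, whose versions are not given in the sources used here. The deposited expected counts are RSEM's unscaled estimates of the reads of each gene, and the deposited TPM values were scaled by the authors for gene length and library total. Read length was inferred from the deposited effective lengths.

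Expected counts were rounded. Genes with at least 1 CPM (a count scaled by depth) in no fewer than 2 of a fit's libraries were tested with edgeR 4.0.16 (R 4.3.3, TMM scaling, quasi-likelihood F test, Benjamini-Hochberg over all genes tested). One fit held the 10 day 0 and day 3 libraries and another the 4 doxycycline libraries. Genes were called at an adjusted p under 0.05 and a change of more than 1 on the log2 scale, and values after ± are SEs (size of the log2 fold change over the square root of F) unless an SD is named. Comparisons that share a group are not independent. The fits were tested on simulated counts. DESeq2 1.42.0 and the other settings tried are described with the limits. Ratios of pooled counts have exact (Clopper-Pearson) 95% intervals. Ratios between SoxF genes were compared with exact permutation tests of log2(TPM + 0.1). Coding sequences and overlaps came from GENCODE M21, and SoxF positions and neighbours from RefSeq, both on GRCm38, the assembly named mm10.

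Replicate numbers mark the same clone at both days within a genotype, per the study's list of libraries, so they pair the day comparisons, other than replicate 3 of day 3, which repeats the clone of replicate 1. Deviations of same-numbered libraries from their group means correlated across genes at only 0.03 and -0.01 in con and -0.04 and 0.06 in ko. Between d3ko and d3con, whose clones differ, the correlations were 0.54, 0.29 and -0.01, and the numbers were not taken to pair the libraries.

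The members and gene lists were chosen with earlier results of these data known. Named genes were the SoxF genes, Foxa2, up to 3 called genes of each list per direction with the largest change in d3con against d0con, d3ko against d3con or d2-FVFp against d2-FVFn, Sox genes with a group mean of at least 5 TPM, the 5 genes most like each SoxF gene, and the 2 nearest genes on each side. Other named genes (Tal1, Lmo2, Kdr, Cdh5, Erg, Tie1, Emcn, Egfl7, Ctnnb1, Rian, Krt7, Clic6, Col9a3 and Foxa1, and the pluripotency genes Dppa5a, Pou5f1, Nanog and Tdgf1) were chosen after their values were seen. One gene that these rules name and one sequence are not reported here.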

Additional observations from a re-analysis of the deposited data

How the results depend on the processing

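The settings tried were median-of-ratios scaling, no filter on low counts, DESeq2, a test against 2-fold (edgeR's glmTreat), a fit of only the 2 groups compared, the replicate number as a block, leaving out each library, leaving out both 75-base libraries and summing the day 3 libraries of 1 clone. The rise of Sox17 from d0con to d3con was called under all of them that apply. The cause of each change below was not tested.

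Sox17 from d0ko to d3ko was not called in the test against 2-fold (3.15) or in the fit of 2 groups (3.22), and ran from 2.33 to 5.51 with 1 library left out. Sox17 in d3ko against d3con was not called without the 75-base libraries (-6.44) or with clones summed (-6.20). Its interaction was called by DESeq2 (-6.84) and ran from -7.68 to -4.50 with 1 library left out. Sox18 from d0ko to d3ko was called with the replicate block (2.90), DESeq2 (2.94) and clones summed (2.42). The replicate block changed no other call of a SoxF gene. Sox7 from d0ko to d3ko was -1.11 without the 75-base libraries. With the clone as a block within each genotype, added after seeing the data, it was -0.36, and no call of a SoxF gene changed. With 1 library left out, values that were not called crossed 0: Sox7 from -1.12 to 1.47 in d3ko against d0ko, from -0.070 to 3.03 in d3ko against d3con and from -1.17 to 0.035 at day 0, Sox17 from -1.74 to 1.44 at day 0, Sox18 from -0.88 to 0.98 in d3con against d0con and from -0.48 to 2.85 in d3ko against d3con, and the ratio of Sox7 to Sox18 from -0.67 to 0.91.

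Counts of called genes were 4890 for d3con against d0con, 2408 for d3ko against d0ko, 1148 for d3ko against d3con and 1091 in the doxycycline line. In that order the test against 2-fold called 2593, 484, 284 and 296. The fit of 2 groups called 1345 for d3ko against d0ko and 67 for d3ko against d3con, and 1 gene, Foxa2, was called in the latter without the 75-base libraries and with clones summed. With 1 library left out the counts ran from 667 to 2860 for d3ko against d0ko, from 80 to 2249 for d3ko against d3con, from 562 to 893 in the doxycycline line and from 0 to 1118 for the interaction. For the interaction, median-of-ratios scaling called 1 (Krt7), no filter 16, the clone block 3 (Clic6, Col9a3 and Foxa1) and DESeq2 566, and at day 0 DESeq2 called 1. List medians were the same with genes at 0 in one group set to a floor of 3 counts.

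Depth limits SoxF values in the low groups, where Sox17 rests on 1 to 17 reads and Sox7 in the doxycycline line on 4 to 14. Outside replicate 1 of d3ko, Sox18 rests on 5 to 54 reads.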
